A study of Mus musculus with 6 samples.

Results

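The genes described here are 9 genes that are switched on early in lymphoid development: Dntt, Rag1, Il7r, Cd27, Notch1, Tox, Satb1, Ikzf1 and Bcl11a. They were chosen by name, as 9 of 18193 measured genes, and every probe set that names 1 of them alone was kept, which gave 26 of the 34945 single-gene probe sets among 45037 in the table. The cells were long-term haematopoietic stem cells, taken from bone marrow by sorting for Sca-1, c-kit and CD150 and against CD48 and lineage markers. There were 3 untreated samples from Irf8+/+ mice (wildtype) and 3 from Irf8-/- mice (knockout), all labelled as 3 weeks, each on its own Affymetrix mouse expression array. The labels do not say what the 3 weeks refer to, nor give strain, sex, the removed part of Irf8, or whether samples came from single or pooled animals, so the p-values measure the spread between these samples. The question was which early lymphoid genes are transcribed in these stem cells at all, and which differ between the genotypes.

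Lymphoid priming is the low transcription of lymphoid genes in multipotent cells before they commit to a lineage. It is known chiefly from progenitors that carry the receptor Flt3, downstream of the long-term stem cell. Dntt and Rag1 encode enzymes of antigen receptor gene assembly, Il7r the receptor for interleukin 7, and Cd27 and Notch1 are surface receptors. Tox, Satb1, Ikzf1 and Bcl11a encode nuclear proteins needed for lymphoid development. IRF8, the product of Irf8, is a transcription factor of the interferon regulatory family that acts in dendritic cells, monocytes and B cells, often together with the Ets factor PU.1.

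Values were log2 expression per probe set, and array medians ran from 4.85 to 4.96. A probe set was called above background in an array when it exceeded the 95th percentile of 78 probe sets for olfactory and vomeronasal receptors, which are genes of sensory neurons. That level was 4.45, 4.70 and 4.56 in wildtype replicates 1 to 3 and 4.57, 5.02 and 5.04 in knockout replicates 1 to 3, so it was highest in knockout replicates 2 and 3. Irf8 itself read 4.98, 6.43 and 5.16 in wildtype and 4.91, 6.39 and 6.50 in knockout in its brighter probe set, a difference of 0.41 (SE 0.64; adjusted p = 0.93 in limma), so the label knockout does not show as less Irf8 signal, and where its probes lie relative to the deletion was not analysed here. Knockout replicate 3 stood furthest from the rest, with a mean correlation of 0.827 against 0.854 to 0.876 for the others. Of 12 long-term stem cell markers, 11 were above background in all wildtype arrays and 9 in all knockout arrays. Slamf1, which encodes the sorted marker CD150, read 5.97, 9.11 and 6.63 in wildtype and 9.02, 8.49 and 4.71 in knockout in its brightest probe set. Cd48, whose product was sorted against, read 4.54, 4.31 and 3.13 in wildtype and 7.60, 9.42 and 3.55 in knockout.

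The promoters of the genes give a view of the sequence near their starts. Of the 9 genes, Tox had no RefSeq promoter of build GRCm38.p6 in the reference used. The promoters of the 8 others, from 250 bases before to 50 bases after a start, gave 13 starts, several of them of Satb1. They were searched on both strands for the core of the interferon-stimulated response element (GAAANNGAA), the Ets-IRF composite element that PU.1 and IRF8 share (GGAANNGAA) and the Ikaros core (TGGGAA). The interferon element was found in 0 of the 13 promoters and in 8.56% of all 32851. The Ets-IRF element was found in 2, 1 of Bcl11a and 1 of Satb1, against 8.24% of all, and the Ikaros core in 4, of Bcl11a, Rag1 and Satb1, against 25.6% of all. Matches describe letters in these windows and not bound sites. The 250 bases before the start are shown for the promoters with an Ets-IRF match, Bcl11a at chr11:24080445-24080694 on the plus strand and Satb1 at chr17:51832648-51832897 on the minus strand, with matches in capitals. In Bcl11a the Ikaros core, 161 bases before the start, overlaps the Ets-IRF match, 159 bases before it. In Satb1 the Ets-IRF match lies on the opposite strand, its first printed base 86 bases before the start.
Bcl11a: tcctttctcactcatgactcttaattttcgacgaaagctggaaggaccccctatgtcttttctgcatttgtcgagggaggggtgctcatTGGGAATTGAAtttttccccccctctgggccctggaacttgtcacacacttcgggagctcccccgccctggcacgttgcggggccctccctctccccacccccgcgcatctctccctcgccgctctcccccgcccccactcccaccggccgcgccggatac
Satb1: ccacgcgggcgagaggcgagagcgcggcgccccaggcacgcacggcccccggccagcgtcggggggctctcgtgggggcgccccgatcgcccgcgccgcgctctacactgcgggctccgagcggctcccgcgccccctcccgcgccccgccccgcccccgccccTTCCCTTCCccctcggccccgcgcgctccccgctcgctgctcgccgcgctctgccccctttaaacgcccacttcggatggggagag

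Of the 26 probe sets, 15 (57.7%) were above background in all 3 wildtype arrays and 12 (46.2%) in all 3 knockout arrays. Over all single-gene probe sets these shares were 52.0% and 44.3%, so the shares of the early lymphoid genes lay near those of all. The 12 probe sets above background in all 6 arrays belonged to 6 genes: 5 to Bcl11a, 2 each to Satb1 and Ikzf1, and 1 each to Dntt, Cd27 and Notch1. Tox had a probe set above background in all wildtype arrays and none in all knockout arrays. The probe sets of Rag1 and Il7r were above background in 0 of 6 arrays. The Dntt probe set lay 1.03 to 1.58 log2 units above background.

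**Figure D1:**
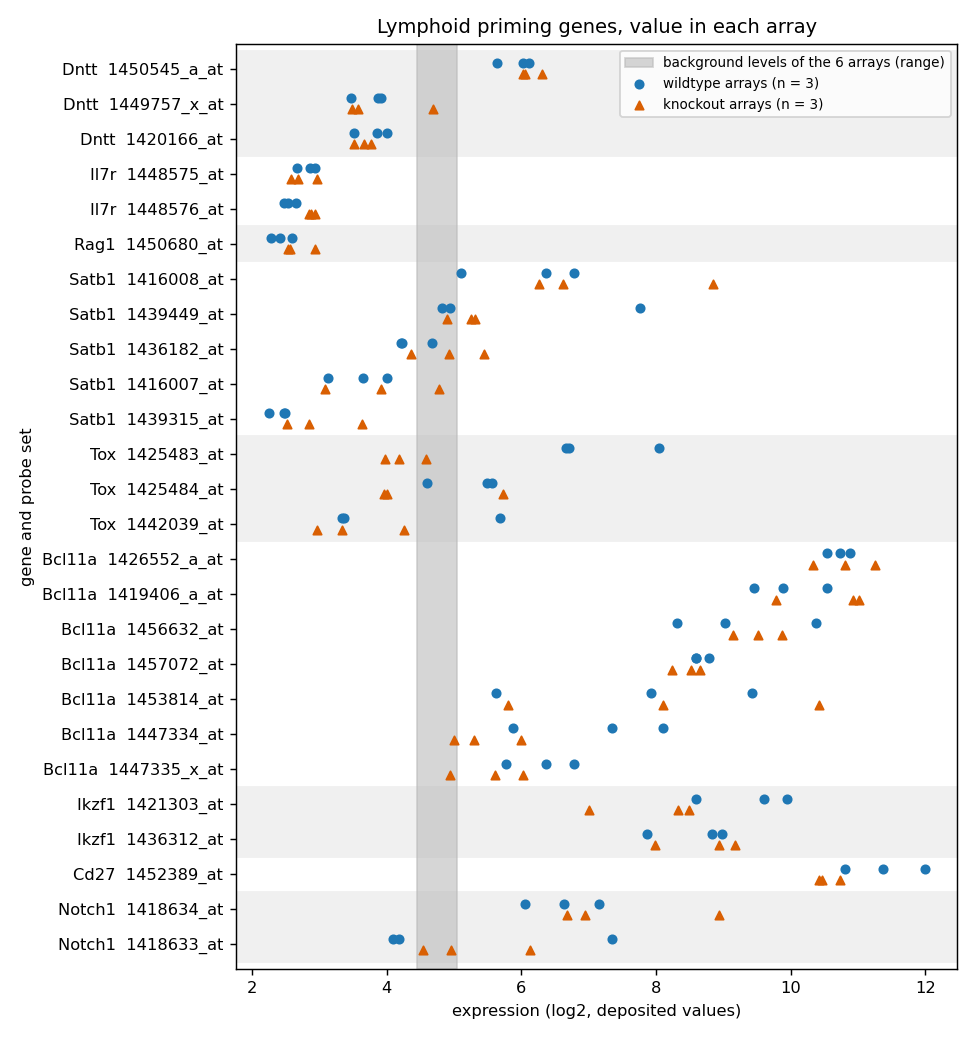
Expression of each of the 26 probe sets (log2, horizontal axis) in 3 wildtype arrays (blue circles) and 3 knockout arrays (orange triangles), grouped by gene; the grey band spans the background levels of the 6 arrays, 4.45 to 5.04. The Rag1 and Il7r points lie left of the band, and the wildtype points of Tox 1425483_at lie right of it while its knockout points lie in or left of it.

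Enzymes of antigen receptor assembly gave little or no signal. Rag1, which encodes the catalytic subunit of the recombinase that cuts antigen receptor genes, read 2.28, 2.41 and 2.60 in wildtype and 2.54, 2.56 and 2.93 in knockout, 1.96 to 2.45 log2 units under background, so no difference in Rag1 RNA can be read from it. Dntt, which encodes the terminal transferase that adds untemplated nucleotides to those joints, read 6.03, 6.11 and 5.64 in wildtype and 6.03, 6.05 and 6.31 in knockout in 1450545_a_at, its brightest probe set. The groups overlapped, and the difference was 0.20 (95% interval -0.74 to 1.15). The 2 other Dntt probe sets were under background in all 6 arrays: 1449757_x_at read 3.91, 3.87 and 3.47 in wildtype and 3.49, 4.69 and 3.58 in knockout, and 1420166_at read 4.00, 3.86 and 3.52 and 3.51, 3.77 and 3.66. Only 14.7% of probe sets had a smaller spread within groups than 1450545_a_at, whose SD was 0.21. Whether its signal comes from Dntt RNA was not tested.

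Among the receptors, Il7r was at background, Cd27 was bright and lower in all knockout arrays, and Notch1 varied between arrays. Il7r, the interleukin 7 receptor alpha chain, read 2.86, 2.94 and 2.67 in wildtype and 2.68, 2.58 and 2.96 in knockout in 1448575_at. In 1448576_at all knockout values (2.93, 2.84 and 2.88) were above all wildtype values (2.47, 2.66 and 2.54), but every value lay at least 1.64 log2 units under background, so no fold is given for Il7r.

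Cd27, a costimulatory receptor of the tumour necrosis factor receptor family, read 11.37, 11.99 and 10.81 in wildtype and 10.47, 10.73 and 10.42 in knockout. The lowest wildtype array was above the highest knockout array by a narrow margin. The means were 11.39 ± 0.59 and 10.54 ± 0.17 (SD, n = 3 each), a difference of -0.85 (SE 0.33, 95% interval -1.65 to -0.05), or 1.80-fold higher in wildtype, and it did not pass after adjustment over all probe sets (adjusted p = 0.902 in limma). Without wildtype replicate 2, the brightest array, the difference was -0.55, and without knockout replicate 3 it was -0.79.

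Notch1, the receptor whose activation directs progenitors to the T lineage, read 7.15, 6.64 and 6.06 in wildtype and 6.95, 8.94 and 6.68 in knockout in 1418634_at. Only knockout replicate 2 stood above the wildtype range, and the difference of 0.90 (SE 0.75; adjusted p = 0.902 in limma) was 0.20 without that array. The second probe set read 7.35, 4.09 and 4.19 in wildtype and 4.54, 6.13 and 4.95 in knockout. Knockout replicate 2 was the highest knockout array in both probe sets, and wildtype replicate 1 the highest wildtype array, and the 4 other values of the second probe set were under background.

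Tox showed the largest difference of the 26 probe sets. Tox, an HMG-box nuclear protein needed for T cell and innate lymphoid development, read 6.67, 6.71 and 8.05 in wildtype and 4.59, 4.19 and 3.97 in knockout in 1425483_at. All wildtype arrays were above background, whereas 1 knockout array was at it (0.02 above) and 2 were under it. The means were 7.14 ± 0.78 and 4.25 ± 0.31 (SD, n = 3 each), a difference of -2.89 (SE 0.51, 95% interval -4.12 to -1.67), a 7.42-fold higher value in wildtype. Since knockout values lay near or under background, those under it were raised to their array's background level, and the wildtype mean was then 4.79-fold higher. This value allows for the floor and not for the spread between samples. The unadjusted p of this probe set was 0.000974 in the limma fit across all probe sets, and its adjusted p of 0.902 did not pass. Leaving out any 1 array gave differences from -3.13 to -2.44, with adjusted p between 0.773 and 0.985 in limma.

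The 2 other Tox probe sets did not show the same separation. In 1425484_at Tox read 5.56, 4.60 and 5.49 in wildtype and 5.73, 3.96 and 4.00 in knockout, where knockout replicate 1 was the highest of the 6 arrays. In 1442039_at it read 5.69, 3.37 and 3.33 in wildtype and 3.33, 4.26 and 2.97 in knockout, with 1 array above background. The difference of 1425484_at was -0.65 (SE 0.58), with overlap, and 1442039_at is not read further because 5 of its 6 values were under background. The mean of the 3 probe sets gave -1.39 (adjusted p = 0.898 in limma). The separation of the groups was thus seen in 1 of the 3 Tox probe sets.

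Ikzf1, which encodes the zinc finger protein Ikaros, gave a split answer from probe sets of nearly equal brightness. In 1421303_at Ikzf1 read 8.59, 9.95 and 9.61 in wildtype and 8.49, 7.0 and 8.33 in knockout. The groups did not overlap, though wildtype replicate 1 and knockout replicate 1 were close, and the difference was -1.44 (SE 0.62, 95% interval -2.93 to 0.06; adjusted p = 0.902 in limma). In 1436312_at Ikzf1 read 7.87, 8.98 and 8.83 in wildtype and 9.17, 8.93 and 7.98 in knockout, a difference of 0.13 (SE 0.55), with wide overlap. The mean of both gave -0.65. The probe sets also disagreed on single arrays: knockout replicate 2 was the lowest of the 6 in the first and among the 3 highest in the second. What part of the Ikzf1 transcripts each probe set detects was not analysed here.

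Satb1, a chromatin organiser that binds AT-rich DNA, was above background in all arrays in 2 of its 5 probe sets. In 1416008_at Satb1 read 6.79, 6.37 and 5.10 in wildtype and 6.62, 6.26 and 8.84 in knockout. Knockout replicate 3 alone was above the wildtype range, and the difference of 1.15 (SE 0.86; adjusted p = 0.902 in limma) was 0.35 without it. In 1439449_at Satb1 read 4.94, 4.82 and 7.77 in wildtype and 4.89, 5.31 and 5.25 in knockout, a difference of -0.69 (SE 0.83). This probe set lay 0.49, 0.13 and 3.21 log2 units above background in wildtype and 0.32, 0.29 and 0.21 in knockout. Wildtype replicate 3, the highest array there, was the lowest in 1416008_at. The 3 other Satb1 probe sets were near or under background. They read 4.68, 4.22 and 4.23 in wildtype and 5.45, 4.36 and 4.93 in knockout in 1436182_at, and 3.13, 3.65 and 4.01 against 4.78, 3.91 and 3.09 in 1416007_at. Satb1 1439315_at read 2.25, 2.48 and 2.49 in wildtype and 3.63, 2.52 and 2.85 in knockout, higher in all knockout arrays but under background in every array.

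Bcl11a, a zinc finger protein needed for the earliest B cell precursors, was measured by 7 probe sets. It read 10.88, 10.74 and 10.54 in wildtype and 11.25, 10.80 and 10.33 in knockout in 1426552_a_at, its brightest, with knockout values on both sides of the wildtype range. The difference was 0.07 (SE 0.30, 95% interval -0.64 to 0.79). In 1419406_a_at Bcl11a read 9.89, 10.54 and 9.46 in wildtype and 11.02, 9.78 and 10.92 in knockout, and in 1456632_at 9.03, 8.31 and 10.38 against 9.52, 9.14 and 9.87, with overlap in both. Bcl11a 1457072_at was the steadiest, at 8.60, 8.59 and 8.79 in wildtype and 8.66, 8.24 and 8.52 in knockout, a difference of -0.19 (SE 0.41). Bcl11a 1453814_at was the least steady, at 7.93, 9.43 and 5.62 in wildtype and 5.80, 8.10 and 10.42 in knockout, and its spread within groups was larger than that of 97.6% of all probe sets. A pair of probe sets with neighbouring numbers had lower means in knockout. Of these, 1447334_at read 5.87, 7.34 and 8.10 in wildtype and 5.30, 5.00 and 5.99 in knockout, a difference of -1.67 (SE 0.68, adjusted p = 0.902 in limma). The other, 1447335_x_at, read 5.78, 6.37 and 6.79 against 5.61, 4.94 and 6.03, a difference of -0.78 (SE 0.49). Both probe sets of the pair overlapped between groups, and Bcl11a had 4 probe sets above 0 and 3 below.

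**Figure D2:**
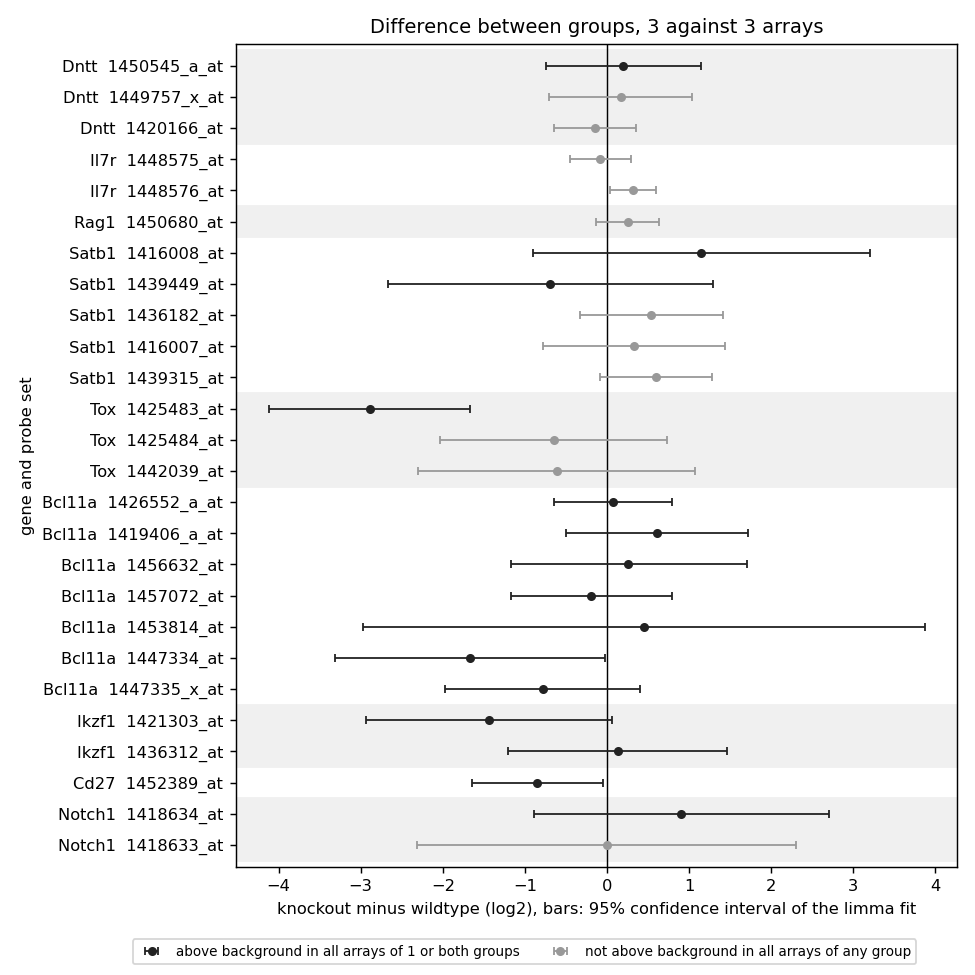
Knockout minus wildtype difference (log2, horizontal axis) of the 26 probe sets with the 95% confidence interval of the limma fit, 3 against 3 arrays; black points were above background in all arrays of 1 or both groups and grey points were not. Tox 1425483_at lies furthest from 0 at -2.89, and the intervals of most probe sets include 0.

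Taken over the 26 probe sets, 0 passed the adjusted threshold of 0.05 in limma, as did 0.0% of all 34945. At an unadjusted p under 0.05 there were 4, in Tox, Bcl11a, Cd27 and Il7r, or 15.4% against 4.68% of all single-gene probe sets, and the Il7r probe set lay under background. Under quantile normalization 1 of the 26 was left, against 1616 of the 34945. All knockout arrays were below all wildtype arrays for 3 probe sets, of Tox, Ikzf1 and Cd27, or 11.5% against 4.48%. They were above for 2, of Il7r and Satb1, or 7.69% against 6.45%, and both lay under background. These shares rest on few probe sets that share genes and samples, and no test was made on them. The median difference of the 26 was 0.10, against 0.06 over all, with 14 above 0 and 12 below, counting those under background. Satb1, Bcl11a and Ikzf1 were the 3 genes with several probe sets above background in all arrays of a group, and all 3 had differences of both signs among those probe sets. Some of these differences were smaller than their SE, such as -0.69 (SE 0.83) in Satb1 1439449_at and 0.13 (SE 0.55) in Ikzf1 1436312_at.

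Companion genes of the same pathways were counted with 1 probe set per gene, the brightest. Over all 18193 genes 4.29% had an unadjusted p under 0.05, 6.67% were higher and 4.25% lower in knockout without overlap, 0 passed after adjustment in limma, and the median difference was 0.07. Of 10 early lymphoid receptor and surface genes 0 passed, 4 were higher without overlap (Flt3, Cd53, Ccr9 and Ly6d) and 0 lower, with a median of 0.24. Flt3, the cytokine receptor that marks lymphoid-primed progenitors, read 6.93, 6.19 and 6.63 in wildtype and 7.99, 8.56 and 10.55 in knockout, with knockout replicate 3 the highest. Cd53, a tetraspanin, differed by 1.06 (SE 0.39). Ly6d differed by 0.28 (SE 0.37) and was separated by a narrow margin, 5.95 in wildtype against 5.98 in knockout at the nearest arrays. Ccr9, a chemokine receptor of lymphoid progenitors, differed by 0.66 (SE 0.40). The other Ccr9 probe sets were split, and 1 was higher in knockout without overlap (3.27, with wildtype under background). Another was lower without overlap (-1.59), but it was above background in 1 wildtype array and 0 knockout arrays, so it is not read further.

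Genes of interleukin 7 signalling were split, although Il7r itself was at background. Of 12 genes 0 passed, 3 were higher without overlap and 0 lower, with a median of 0.07. Cish, which encodes a STAT5-induced inhibitor of cytokine receptors, read 9.50, 9.72 and 9.57 in wildtype and 10.59, 11.10 and 10.65 in knockout, a difference of 1.18 (SE 0.28; adjusted p = 0.902 in limma). Socs1, another feedback inhibitor, read 4.27, 4.34 and 4.76 in wildtype, above background in 1 array, and 5.72, 5.36 and 5.30 in knockout, above it in all 3. Stat5b, a signal transducer of the pathway, differed by 1.77 (SE 0.71) in the probe set counted here, although its other probe set, also above background in all arrays, read 7.75 in wildtype and 7.74 in knockout on average. Its relative Stat5a differed by -0.72 in the counted probe set and by 0.75 in another. These genes serve several cytokine receptors besides that for interleukin 7.

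Of 10 genes of recombination and end joining 0 passed, 0 were higher and 2 lower without overlap, with a median of -0.58. By sign, 4 differences were above 0 and 6 below. Xrcc5, the Ku80 subunit that binds broken DNA ends, read 9.17, 8.20 and 7.57 in wildtype and 5.58, 7.36 and 6.89 in knockout. Xrcc6 and Poll, of the same list, differed by 1.14 (SE 0.71) and 0.62 (SE 0.58) in the counted probe sets, with overlap. Hmgb2, a cofactor of the recombinase, differed by -0.71 (SE 0.35) in the counted probe set. It differed by -0.3 (SE 0.28) in another that was above background in all arrays. The remaining Hmgb2 probe set was above background in 1 wildtype array and 0 knockout arrays, so it is not read further. Prkdc, the DNA-dependent protein kinase, read 7.76, 5.96 and 7.03 in wildtype and 4.01, 7.38 and 3.07 in knockout, with replicates 1 and 3 under background there. The Prkdc difference was -2.1 (SE 1.16), and the groups overlapped, with knockout replicate 2 inside the wildtype range. With the values under background raised to their array's background level, the wildtype mean was 2.39-fold higher. That fold allows for the floor and not for the spread between samples, so it is not a least difference. Rag2, the partner of Rag1, was above background in 0 of 6 arrays.

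Of 19 lymphoid transcription regulators 0 passed, 0 were higher and 1, Ets1, was lower without overlap, with a median of -0.08. Ets1 differed by -0.56 (SE 0.37), and its other probe sets, not above background in all arrays of a group, lay between -0.37 and 1.62. In the same list Id1, an inhibitor of E proteins, differed by 0.98 (SE 0.56) and Spi1, which encodes PU.1, by 1.09 (SE 0.76). In the Notch pathway 0 of 17 genes passed and 0 were free of overlap in either direction in the counted probe set. Its target Hes1 differed by 0.78 (SE 0.55), with knockout replicate 2 highest at 7.20 as it was for Notch1, and the gamma-secretase subunit Ncstn by -0.65 (SE 0.64). The receptor Notch2 differed by 0.58 (SE 0.47) in the counted probe set and by -1.21 (SE 0.65) in another, lower in knockout without overlap. Among 11 chromatin partners and relatives of Ikaros, Satb1, Tox and Bcl11a the median was -0.62, with 8 below 0, 0 past the threshold and 0 free of overlap. Chd4, the remodeller of the NuRD complex that Ikaros binds, differed by -1.02 (SE 0.42) in the counted probe set, but by 1.15 (SE 0.53), higher in knockout without overlap, and 0.58 (SE 0.61) in 2 others above background in all arrays. The deacetylase Hdac1 differed by -0.76 (SE 0.52) and Ikzf2, a relative of Ikzf1, by -1.03 (SE 0.98). Of 4 genes around Cd27, Cd70, its ligand, was at background in every array, and Siva1 and Traf2, its adaptors, differed by 0.45 (SE 0.43) and -0.77 (SE 0.82).

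**Figure D3:**
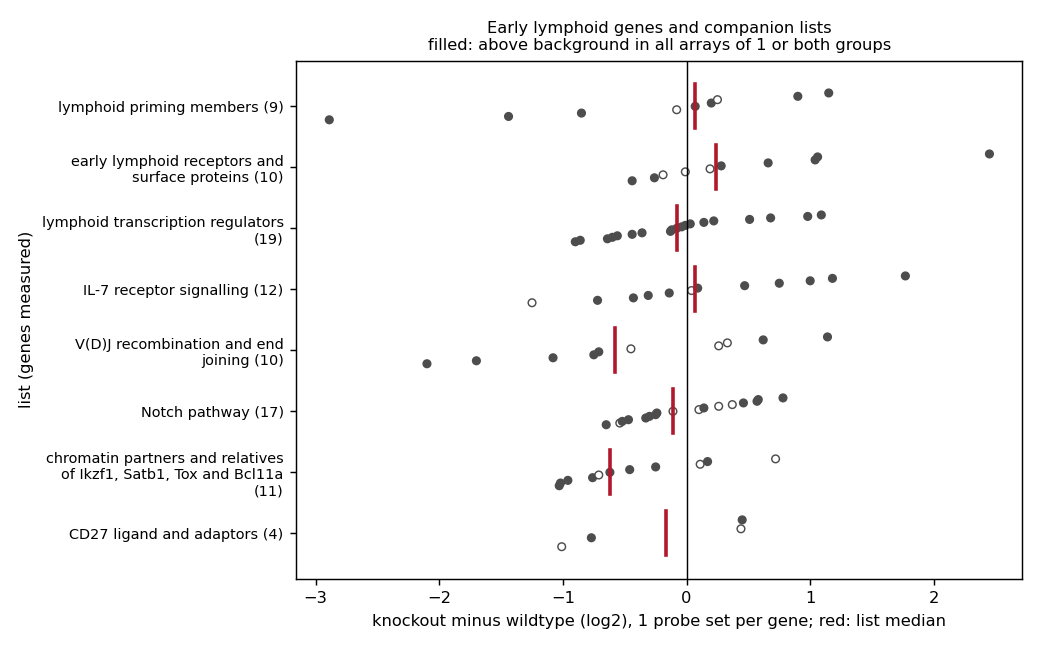
Knockout minus wildtype difference (log2, horizontal axis) of each gene, 1 probe set per gene, in the 9 early lymphoid genes and 7 companion lists; filled points were above background in all arrays of 1 or both groups, and red bars are list medians. Medians run from -0.62 for chromatin partners and relatives to 0.24 for receptors and surface proteins, and single genes spread on both sides of 0 in each list.

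Arrays differed in markers of other cells, and these values stand beside the differences above. B lineage markers averaged 4.38 to 4.50 over 11 genes in wildtype and 4.18 to 4.54 in knockout, with 4 of 11 above background in all wildtype arrays and 2 in all knockout arrays. Cd79b, a subunit of the B cell receptor, read 7.64, 9.69 and 8.23 in wildtype and 6.50, 7.10 and 7.74 in knockout, whereas Ms4a1, the gene of CD20, was under background in every array. T and NK cell markers averaged 4.62 to 4.77 over 10 genes in wildtype and 4.71 to 5.21 in knockout, with Cd3e and Cd3g under background in every array, while Cd4, a gene of mature T cells, was above it in all 6, with group means of 5.85 and 5.73. Plasmacytoid dendritic cell markers averaged 6.11, 6.60 and 6.42 over 7 genes in wildtype and 6.50, 6.99 and 6.94 in knockout, with overlap. Of these 7 genes, 6 had differences above 0 and 1 below. In that list 2 were higher without overlap, Ccr9 among them, and 0 lower. Multipotent progenitor markers averaged 7.24 to 7.78 over 7 genes in wildtype and 8.52 to 8.60 in knockout, with 5 of 7 differences above 0, and Flt3 and Cd53 are among them. Neutrophil markers averaged 6.65 to 7.85 over 11 genes in wildtype and 8.74, 8.88 and 11.32 in knockout, highest in knockout replicate 3, and all 11 differences were above 0. Erythroid markers averaged 7.11, 6.30 and 6.19 over 8 genes in wildtype and 5.37, 6.01 and 6.18 in knockout, lower without overlap by a narrow margin. Of these 8 genes, 2 had differences above 0 and 6 below. Only 3 were above background in all wildtype arrays and 2 in all knockout arrays. Long-term stem cell markers averaged 9.15 to 9.51 over 12 genes in wildtype and 9.77, 9.30 and 8.22 in knockout, lowest in knockout replicate 3. Their part in the values of Flt3, Satb1, Tox, Ikzf1 and Cd27 was not tested, and in sorted bulk cells fewer cells of a kind and less RNA per cell cannot be told apart. Tox, Ikzf1 and Cd27 differed by -2.75, -1.63 and -0.79 without knockout replicate 3.

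**Figure D4:**
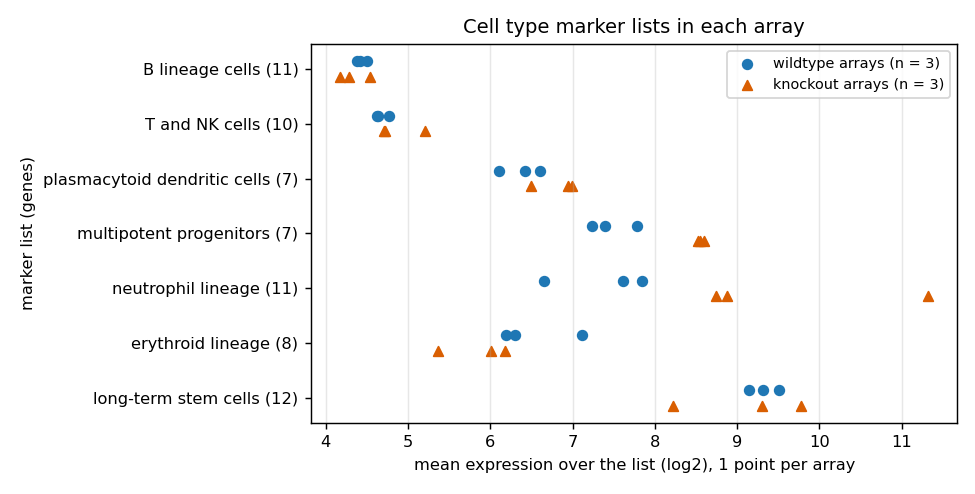
Mean expression (log2, horizontal axis) over each cell type marker list, 1 point per array, for 3 wildtype (blue circles) and 3 knockout arrays (orange triangles); list sizes are in brackets. The multipotent progenitor and neutrophil lists are higher in knockout without overlap. The erythroid list is lower without overlap by a narrow margin, 6.19 against 6.18 at the nearest arrays. Knockout replicate 3 lies at 11.32 for neutrophil and 8.22 for stem cell markers, while the B lineage list overlaps.

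For the 6 genes above background in all arrays, the genes with the most similar pattern over the 6 arrays were found among 9135 others by Pearson's r, as a description. They were Mfng and Prpf8 for Dntt (r of 0.992 and 0.988), Pask and 1810058I24Rik for Satb1 (0.996 each), and Zfp330 and Riox2 for Bcl11a (0.993 and 0.985). For Ikzf1 they were Zfp932 and Sptssa (0.984 and 0.972), for Cd27 Vps41 and Cnrip1 (0.989 and 0.985), and for Notch1 AI837181 and Ralb (0.988 and 0.984). Zfp932 read 7.06, 9.21 and 8.88 in wildtype and 6.80, 5.42 and 6.77 in knockout, so it followed Ikzf1 1421303_at with knockout replicate 2 lowest. The r values rest on 6 arrays that share these samples and carry no test.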

How the data were processed

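The authors deposited 1 log2 value for each probe set in each array, and named RMA, Affymetrix Expression Console and Partek without versions, per the submitters' processing notes. RMA, with its background step and probe summary, can shrink differences between dim values. The labels name no detection call, setting or genome build. RNA was amplified with a whole-transcriptome kit before labelling, per the labels' protocols. Probe sets were named from the platform annotation, and only those with 1 gene were used: 34945, against 932 with several genes and 9160 with none.

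The comparison of genotypes used limma 3.58.1, under R 4.3.3, with a mean-variance trend over all single-gene probe sets, two-sided, with Benjamini-Hochberg adjustment and a threshold of 0.05. Fold values are 2 to the power of the log2 difference. The fit was run on simulated data with planted shifts, and only their mean recovered size was checked. How many planted shifts it called is not given here, so the check does not bear on the power to call changes. For companion lists up to 3 genes each with the smallest unadjusted p among those above background in all arrays of a group are named, and the brightest probe set stands for a gene; other genes are named where counted or as markers. Genes, lists and tests were chosen with earlier results of these data known. Deviations of samples with the same replicate number from their group means correlated at -0.02, 0.006 and -0.001, so the values showed no pairing by number. Whether samples with the same number were collected or processed together is not stated in the labels. Tables and plots were made with Python 3.11.15 (matplotlib 3.10.9, numpy 2.4.6, pandas 2.3.3). Alternatives covered moderation, array weights, scaling, probe set choice, the replicate block, the background level and each array left out.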

Additional observations from a re-analysis of the deposited data

How the results depend on the processing

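Over all probe sets 0 were called with limma in the fit as reported (1634 at an unadjusted p under 0.05), and 1 gene, Zfp229, which is none of the 9, was called when the probe sets of a gene were averaged. Of the 26 early lymphoid probe sets 0 were called under any of the 16 other settings, and their smallest adjusted p ran from 0.55 to 0.985, while the number at an unadjusted p under 0.05, 4 as reported, ran from 1 (quantile normalization) to 4. With the replicate block the difference of Tox 1425483_at was -2.89 (adjusted p = 0.902) and 0 probe sets were called. Some near-zero differences turned, the cause not tested: with averaged probe sets Il7r was 0.12 and Bcl11a -0.18, and leaving out 1 array gave -0.15 to 0.31 for Bcl11a 1426552_a_at. The directions of Tox 1425483_at, Cd27, Ikzf1 1421303_at, Satb1 1416008_at and Notch1 1418634_at were kept under each setting run. Several settings, such as the replicate block, cannot change the difference of a probe set and so do not test its direction. The number of the 26 probe sets above background ran from 13 to 16 in wildtype and from 10 to 16 in knockout over the settings tried. These included 1 level for all arrays, chosen after seeing the data, which gave 15 and 14. Leaving out probe sets with names ending in _s_at, _x_at or _a_at, and so part of the 26, gave 12 and 9. Limits are the 3 arrays per group, the 78 receptor probe sets that set the background, and the values under it, where differences have no reading.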
